A study of Homo sapiens with 6 samples.

Results

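Chromosome 19 is the most gene-dense human chromosome, and this account concerns the accessible chromatin peaks that lie on it with or without silencing of HMGA1 in a series whose samples given here are DAMI cells. Members were all peaks of 2 deposited peak lists whose chromosome was 19, with no selection on any measured value. They numbered 1965 of 112610 peaks in the shHMGA1 list and 2067 of 127153 peaks in the control list, 4032 of 239763 in all. The silenced cells were infected with a lentivirus carrying a short hairpin RNA against HMGA1 (shHMGA1, 3 samples), and the others with a control lentivirus (3 samples); the hairpin sequence and the control construct were not given. DAMI is an established human megakaryocytic leukaemia line labelled MPN/AML (myeloproliferative neoplasm and acute myeloid leukaemia), and its identity was not checked here because peak lists hold no expression values. The series text also names another cell line, SET-2, and whether its libraries entered the lists is not stated; the samples given here are all labelled DAMI, and the lists name no cell line. Open chromatin was mapped with ATAC-seq, which reads out where the Tn5 transposase can insert into DNA, from 50000 cells per reaction. Each group has 1 list with no values per sample, so no difference between the groups has a replicate check, no test was run and no p-value is given. Read depth is unknown, so a difference in depth between the groups and a difference in accessibility cannot be told apart.

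HMGA1 is a small architectural protein whose AT hooks bind the minor groove of AT-rich DNA. Chromosome 19 is rich in GC bases and holds the largest share of the human KRAB zinc finger genes, whose products silence transposable elements by recruiting the corepressor TRIM28. These genes stand in tandem clusters that carry repressive heterochromatin marks over their bodies in many cell types, while their promoters are often open. Zinc finger genes in such clusters include ZNF91 in 19p12 and the imprinted gene PEG3 in 19q13.43.

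The chromosome was divided by peak summit into its arms and 4 zinc finger clusters (hg19 coordinates throughout). The 19p12 cluster ran from 19900000 to 24400000, the 19q13.12 cluster from 36500000 to 38300000, the 19q13.41 cluster from 52500000 to 54000000 and the 19q13.43 cluster from 56500000 to 58900000. They are named here by the band that holds most of each. Together they made up 18.6% of the chromosome outside its centromeric bands, which themselves held 16 shHMGA1 and 16 control peaks and were left out of densities. The RefSeq gene table of GRCh38.p14, used only for gene numbers, lists 1451 protein-coding genes on chromosome 19. Of these, 266 have a zinc finger family symbol (ZNF, ZFP, ZSCAN, ZIM, ZIK or PEG3), out of 563 in the genome.

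Accessible sites on chromosome 19 were few for its number of genes, but they ranked high in significance. In the shHMGA1 list it held 35.5 peaks per Mb, the 8th highest of 23 chromosomes (1 to 22 and X). In the control list it held 37.3 per Mb, the 11th highest. Per protein-coding gene the values were 1.35 shHMGA1 and 1.42 control peaks, the lowest of all 23, followed by 1.57 and 1.66 on chromosome 22, 1.59 and 1.96 on chromosome X, 1.88 and 2.16 on chromosome 16, and 2.05 and 2.15 on chromosome 17. On gene-poor chromosome 13 they were 11.7 and 13.3. Its gene density was 26.4 per Mb, against 15.1 on chromosome 17, the next highest. Across the 23 chromosomes the Spearman correlation of peak density with gene density was -0.22 in shHMGA1 and -0.29 in control cells. These are descriptions of 23 points that share each list's libraries.

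The peaks that were called were wide and strong. The strength of a peak is given by the authors as the area under its significance curve (the area), which grows with peak width. The median area on chromosome 19 was 1246 in shHMGA1 and 1207 in control, the highest of the 23 chromosomes in each list. Over the whole lists it was 616 in shHMGA1 and 602 in control. Median width was 647 bp in shHMGA1 and 626 bp in control, exceeded by chromosome 9 alone, against 539 and 525 bp over the whole lists. Area per base, which takes out width, had medians of 2.02 and 2.10, also the highest of the 23. Of the shHMGA1 peaks, 334 (17.0%) stood in the most significant decile of their list by summit −log10 p, against 10.0% of all shHMGA1 peaks by construction. Of the control peaks, 412 (19.9%) did, against 10.0% of all control peaks. Both shares were the highest of the 23 chromosomes.

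Chromosome 19 held nearly as many peaks in shHMGA1 as in control cells. The ratio of shHMGA1 to control peak numbers was 0.951, second to chromosome 17 at 0.954, against 0.886 for the whole lists. This order turned when both lists were made equally long by keeping their strongest 56305 peaks, with a ratio of 0.988 on chromosome 19 and 1 by construction over the whole lists. Peaks with 1 bp or more in common with the other list counted as shared. In shHMGA1 cells 209 peaks had no such overlap (10.6%, 95% Wilson interval 9.35 to 12.1), against 14.8% of all shHMGA1 peaks. In control cells 295 had none (14.3%, interval 12.8 to 15.8), against 24.9% of all control peaks and the lowest share of the 23 chromosomes. The intervals cover counting error only and treat neighbouring peaks as independent. Control-only peaks made up 58.5% of the unshared peaks on chromosome 19 (exact Clopper-Pearson interval 54.1 to 62.9), against 65.5% over the whole lists.

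Peak strength moved with these shares. Had each peak been unshared at the whole-list rate of its decile of significance, 9.43% of the shHMGA1 and 15.6% of the control peaks of chromosome 19 would have lacked a partner, close to the observed 10.6% and 14.3%. In the weakest decile, however, 56 of 98 shHMGA1 peaks were unshared (57.1%, Wilson interval 47.3 to 66.5), against 43.7% of that decile genome-wide. In the weakest decile of the control list 47 of 93 were unshared (50.5%, interval 40.6 to 60.5), against 61.2% genome-wide. The weakest deciles therefore lay on opposite sides of their lists. In the top 3 deciles no peak of chromosome 19 was unshared in either list, where over the whole lists 0.355%, 0.0622% and 0% of shHMGA1 and 0.763%, 0.0551% and 0% of control peaks were, so none is near the background.

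**Figure D1:**
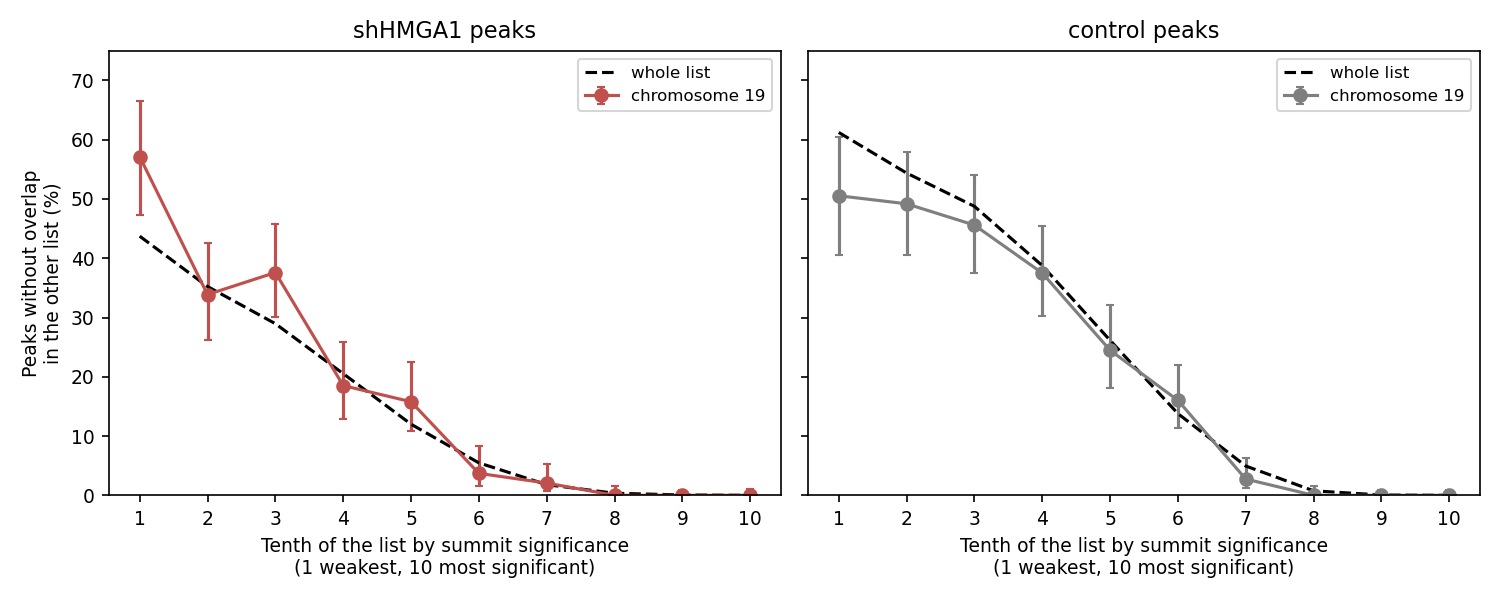
Share of peaks without a 1 bp overlap in the other list (%, vertical axis) by decile of summit significance within the list (horizontal axis, 10 the most significant), shHMGA1 left and control right. Points are chromosome 19 with 95% Wilson intervals and the dashed line is the whole list; in the weakest decile chromosome 19 stood at 57.1% above the line in shHMGA1 and at 50.5% below it in control.

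The arms differed little in density. The q arm held 1125 shHMGA1 and 1202 control peaks, 36.9 and 39.4 per Mb. The p arm held 824 shHMGA1 and 849 control peaks, 33.8 and 34.8 per Mb. Outside the clusters the q arm held 38.4 shHMGA1 and 41.1 control peaks per Mb, and the p arm 39.3 and 39.5. With the clusters included, peaks of the q arm were the wider. Their medians were 689 bp in shHMGA1 and 646 bp in control, against 614.5 and 613 bp on the p arm. Outside the clusters this held in shHMGA1 alone. There the medians were 647 bp in shHMGA1 and 603.5 bp in control on the q arm, and 610.5 and 620 bp on the p arm. Median area was 1299 in shHMGA1 and 1239 in control on the q arm, and 1163 and 1146 on the p arm. Outside the clusters it was 1204 in shHMGA1 and 1156.5 in control on the q arm, and 1163 and 1204 on the p arm. Unshared shares were alike in shHMGA1, 10.6% on the q arm and 10.3% on the p arm, and in control they were 14.8% on the q arm and 13.2% on the p arm. Outside the clusters they were 11.2% and 10.9% in shHMGA1, and 15.6% and 11.7% in control, in the same order of arms. Most of this control difference lay in band 19q12, which was singled out after its values were seen. Without that band the q arm outside the clusters had 11.3% unshared in shHMGA1 and 12.6% in control.

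The arms parted in the ranks of their strongest peaks. Outside the clusters, 195 of 954 shHMGA1 peaks on the q arm (20.4%) and 212 of 1020 control peaks (20.8%) were in the most significant decile of their list. On the p arm 92 of 782 shHMGA1 peaks (11.8%) were, against 139 of 787 control peaks (17.7%). Among p arm regions outside the clusters with exactly 1 peak in each list, 1 was in the top decile in shHMGA1 alone and 44 in control alone. On the q arm outside the clusters the numbers were 10 in shHMGA1 alone and 25 in control alone. The top decile of the control list is the larger, 12716 peaks against 11261 in shHMGA1. The same numbers were not taken over all pairs, so these have no background beside them. The percentile of summit significance was higher in shHMGA1 for 31.4% of 643 p arm pairs outside the clusters (Wilson interval 27.9 to 35.1) and 35.5% of 761 q arm pairs (interval 32.2 to 38.9), against 37.0% of all pairs. Percentiles are ranks within lists of unequal length, so they describe order in each list and not signal.

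The zinc finger clusters were sparse. They held 213 shHMGA1 peaks, 20.9 per Mb, against 38.8 per Mb on the rest of the chromosome, a ratio of 0.538. In control cells they held 244 peaks, 23.9 per Mb, against 40.4 per Mb, a ratio of 0.592. With 18.6% of the length they thus held 10.9% of the shHMGA1 peaks (Wilson interval 9.62 to 12.4) and 11.9% of the control peaks (interval 10.6 to 13.37). The sparseness was uneven. The 19p12 cluster stood at 0.240 of the outside density in shHMGA1 and 0.341 in control, 19q13.41 at 0.601 and 0.627, and 19q13.43 at 0.709 and 0.784. Taken whole, the 19q13.12 cluster was as dense as the rest, at 1.00 in shHMGA1 and 0.935 in control. Outside the runs of close peaks described below, it held 23.1 per Mb in each list and was sparse too. Without 19p12, the clusters together stood at 0.773 in shHMGA1 and 0.790 in control, and without 19q13.12 at 0.439 in shHMGA1 and 0.519 in control.

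The ratio of shHMGA1 to control peak numbers was 0.873 over the clusters (interval 0.727 to 1.05) and 0.961 outside them. Over the whole lists it was 0.886, so the clusters were near the background. It was 0.677 at 19p12, 0.868 at 19q13.43, 0.921 at 19q13.41 and 1.03 at 19q13.12. With lists made equally long, it was 1.01 over the clusters and 0.985 outside, so the lower ratio of the clusters did not hold there.

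**Figure D2:**
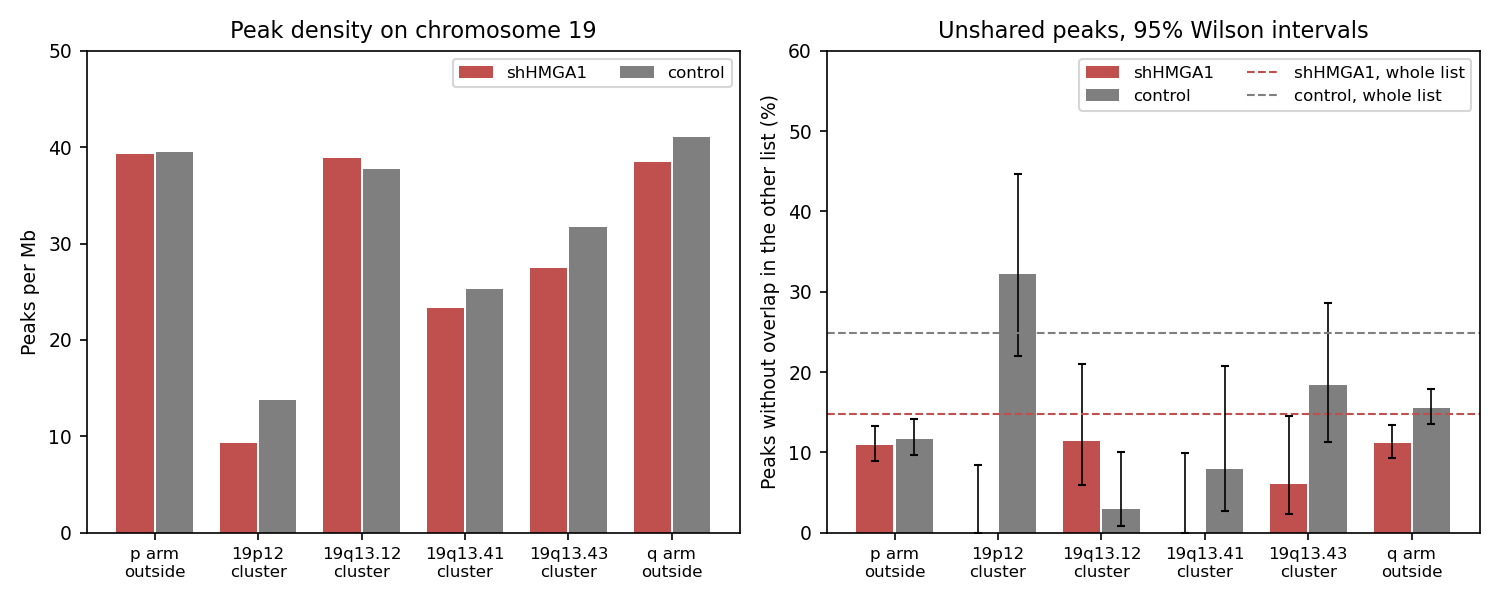
Left, peaks per Mb in the arms outside the clusters and in each zinc finger cluster, shHMGA1 in red and control in grey; right, the share of those peaks without overlap in the other list (%), with 95% Wilson intervals as bars and the whole-list shares as dashed lines. The 19p12 cluster had the lowest densities, 9.33 and 13.8 per Mb, and the highest control share, 32.3%.

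The few peaks of the clusters were wide and strong when peaks of all strengths were counted. Median width in the clusters was 768 bp in shHMGA1 and 718.5 bp in control, against 628 and 613 bp outside. Median area was 1838 in shHMGA1 and 1589 in control, against 1186 and 1169 outside. The top decile held 45 of 213 shHMGA1 peaks of the clusters (21.1%) and 59 of 244 control peaks (24.2%), against 16.5% and 19.4% outside. Of the peaks outside, the q arm had 20.4% in shHMGA1 and 20.8% in control, and the p arm 11.8% and 17.7%. By cluster, median area was 1281 in shHMGA1 and 723 in control at 19p12, 1827 and 2183 at 19q13.12, 2011 and 1966 at 19q13.41, and 1892 and 1674 at 19q13.43. Control peaks of 19p12 thus were the one group of cluster peaks smaller than those outside, in width (461 bp) and in area. The larger width was not clear among strong peaks of either list. For peaks at or above the joined median significance of the lists, median width in the clusters was set over that outside. The ratio was 0.959 in shHMGA1 (interval 0.899 to 1.03) and 1.04 in control (interval 0.954 to 1.14). The same ratio of median areas was 1.15 in shHMGA1 (interval 0.990 to 1.32) and 1.27 in control (interval 1.07 to 1.47). The larger area was thus clear among these peaks in control alone.

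**Figure D3:**
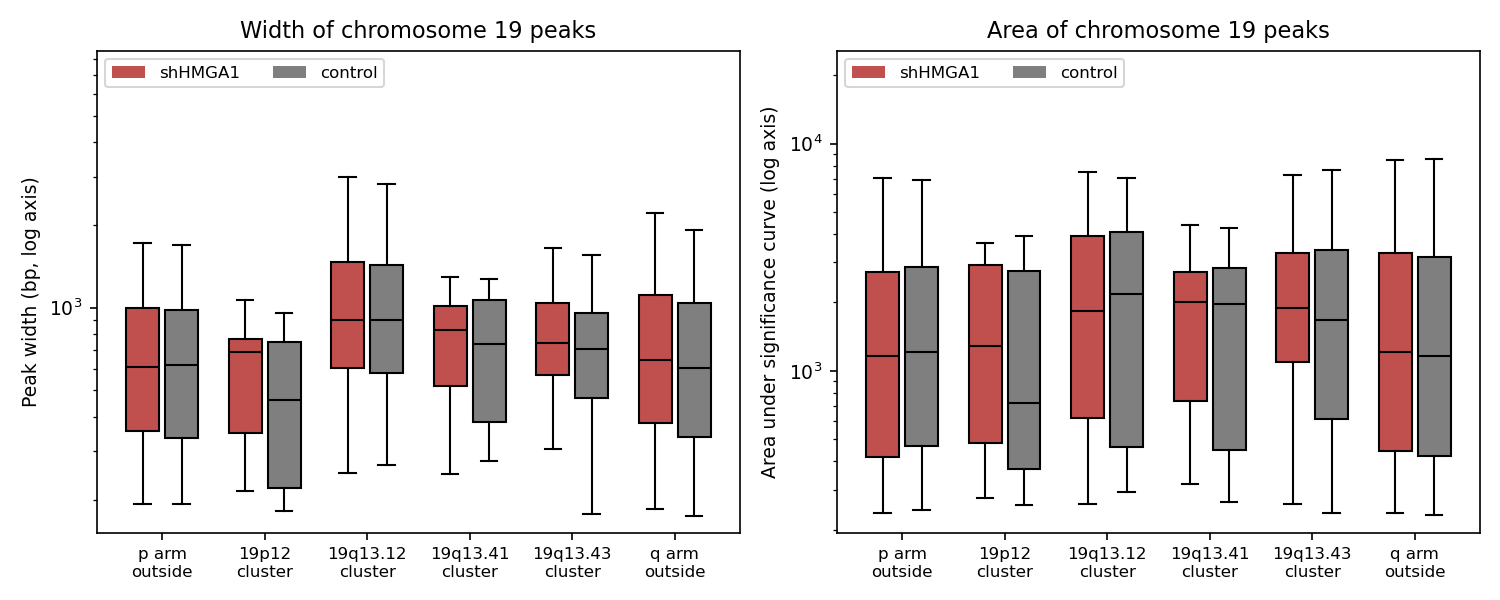
Peak width in bp (left) and area under the significance curve (right), both on log axes, for the parts of chromosome 19 with shHMGA1 in red and control in grey. Boxes show quartiles and median and whiskers the 5th and 95th percentiles; the 19q13.12 peaks were the widest, with medians of 901 and 902.5 bp, and control peaks of 19p12 the narrowest, at 461 bp.

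Spacing followed density in 3 clusters and not in the other one. The median distance from a summit to the next was 22736 bp in shHMGA1 clusters and 20642 bp in control clusters, against 12401 and 11858 bp outside. Over the whole lists it was 7867 bp in shHMGA1 and 7022 bp in control. It reached 45945 bp in shHMGA1 and 24140 bp in control at 19p12, 35772 and 32578.5 bp at 19q13.41, and 24757.5 and 21238.5 bp at 19q13.43. In the 19q13.12 cluster it was 5056 bp in shHMGA1 and 7932.5 bp in control. There, 14 of 70 shHMGA1 and 11 of 68 control peaks had another summit within 1 kb. No peak of the 19q13.41 or 19q13.43 clusters did in either list.

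**Figure D4:**
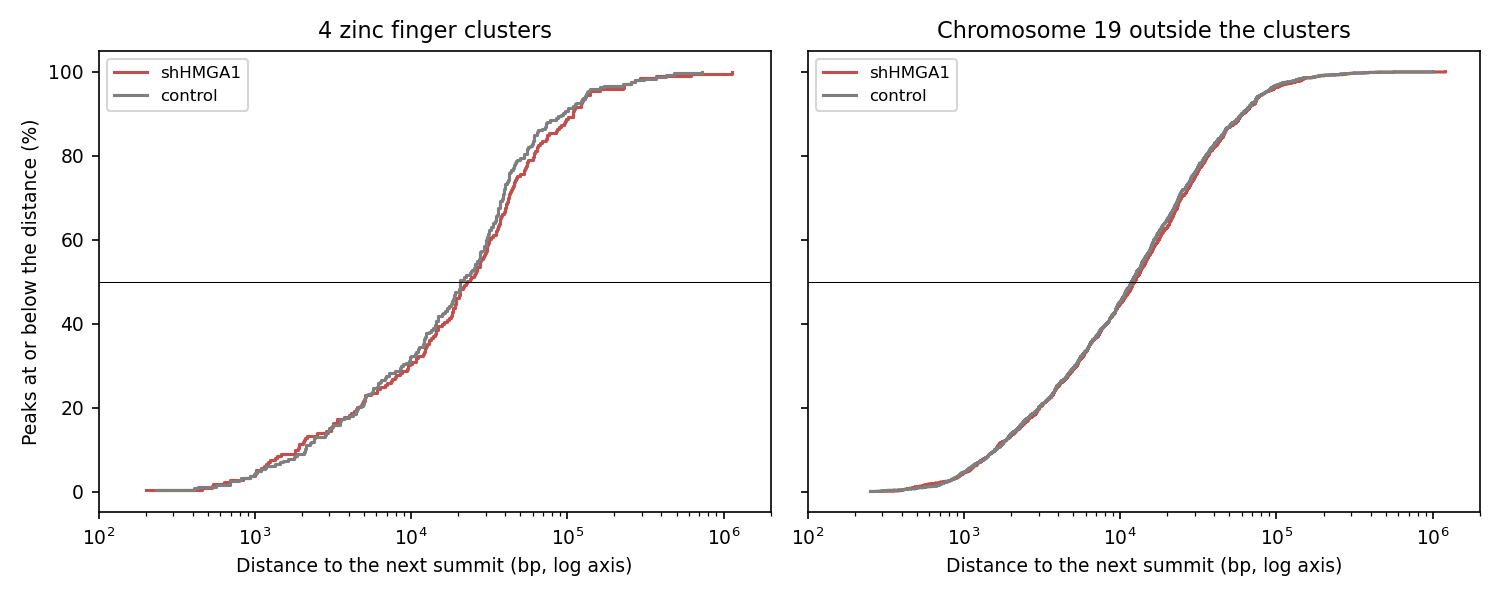
Cumulative share of peaks (%) by distance to the next summit (bp, log axis), in the 4 zinc finger clusters (left) and on chromosome 19 outside them (right), shHMGA1 in red and control in grey. The curves cross 50% near 22736 and 20642 bp in the clusters, and near 12401 and 11858 bp outside.

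The close spacing in the 19q13.12 cluster came from 2 runs, which were singled out after their values were seen. Between 36760015 and 36795075 lay the summits of 13 shHMGA1 and 16 control peaks. Peaks covered 90.9% of these 35.1 kb in shHMGA1 and 85.3% in control, which includes part of a 9865 bp shHMGA1 peak whose summit lies past the end. From 37761251 to 37794454 there were 17 shHMGA1 and 12 control peaks, covering 52.3% and 31.3% of 33.2 kb. The bounds of the first run were set by the control list and those of the second by the shHMGA1 list. Counts and coverage within them can therefore lean to the list that set them. At the second site the run of the control list was shorter, from 37772012 to 37794204 with 10 peaks. None of these peaks stood in the top decile of either list. The second run was weak, with a median summit −log10 p of 4.45 in shHMGA1 and 3.72 in control. Outside the runs the cluster held 40 shHMGA1 and 40 control peaks, 23.1 per Mb in each list, with a median spacing of 39485 bp in shHMGA1 and 39499 bp in control, against 35772 bp in shHMGA1 and 32578.5 bp in control in the 19q13.41 cluster. Without the runs its median area was 2877 in shHMGA1 and 3416 in control.

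Sharing in the clusters differed from cluster to cluster. Over all 4, 12 of 213 shHMGA1 peaks were unshared (5.63%, Wilson interval 3.25 to 9.59), against 11.1% outside (interval 9.67 to 12.6), 14.8% of the whole list and 8.26% at the whole-list rate of each decile. Of the control peaks 39 of 244 were unshared (16.0%, interval 11.9 to 21.1), against 13.9% outside (interval 12.4 to 15.6) and 24.9% of the whole list. At the whole-list rate of each decile the control share of the clusters would be 16.3%, close to that observed. At 19p12 every shHMGA1 peak was shared (0 of 42 unshared, which allows up to 7.14%), while 20 of 62 control peaks were not (32.3%, interval 21.95 to 44.6). Of these 20, 17 lay among the weaker 5 deciles of the control list. With equal numbers of the strongest peaks from both lists, the control share at 19p12 was 9.09%. At 19q13.12, 8 of 70 shHMGA1 peaks were unshared (11.4%, interval 5.91 to 21.0) and 2 of 68 control peaks (2.94%, interval 0.810 to 10.1). Of those 8 shHMGA1-only peaks, 6 lay in the run from 37761251 to 37794454, whose bounds were set by the shHMGA1 list. Outside both runs 1 of 40 peaks was unshared in each list. At the whole-list rate of each decile, 19q13.12 would have 11.8% unshared in shHMGA1 and 20.8% in control. Its shHMGA1 share was thus near the background and its control share below it. For 19p12 those rates were 8.46% in shHMGA1 and 17.6% in control. At 19q13.43, 4 of 66 shHMGA1 and 14 of 76 control peaks were unshared, and at 19q13.41, 0 of 35 (which allows up to 8.57%) and 3 of 38. Without 19p12 the control share of the clusters was 10.4%, and without 19q13.12 the shHMGA1 share was 2.80%.

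In 3 clusters the peaks of largest area in the lists overlapped each other. At 19p12 it lay from 21809674 to 21810830 in shHMGA1 (1157 bp, area 4348) and from 21809629 to 21810815 in control (1187 bp, area 5121). At 19q13.41 it lay from 52692420 to 52694046 in shHMGA1 (area 9908) and from 52692611 to 52693882 in control (area 9078). At 19q13.43 it lay from 56630991 to 56633530 in shHMGA1 (area 13246) and from 56631338 to 56633359 in control (area 12328). At 19q13.12 the lists differed. The shHMGA1 peak of largest area ran from 36789295 to 36799159, was 9865 bp wide and overlapped 3 control peaks. It ranked 433 in its list by area and 23502 by summit significance. The control peak of largest area there ran from 36544715 to 36546447 and was 1733 bp wide (area 10098).

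Of the unshared peaks of the clusters, 11 of 12 shHMGA1 and 34 of 39 control peaks stood in the weaker 5 deciles of their lists, near the background of 15815 of 16682 shHMGA1 and 29149 of 31635 control unshared peaks. The one with the largest area in shHMGA1 lay at 19q13.12 from 37761251 to 37762369 (area 1308, summit −log10 p 4.80), in the second run, 769 bp from a control peak. At 19q13.43 it was a shHMGA1-only peak from 56812592 to 56813621 (area 1107), 7392 bp from the nearest control peak. In control, the leading unshared peaks lay from 21323701 to 21324111 at 19p12 (area 742), from 56637179 to 56637645 at 19q13.43 (area 612), from 37789043 to 37789627 at 19q13.12 (area 304) and from 53664438 to 53664723 at 19q13.41 (area 276). Their nearest shHMGA1 peaks were 458, 3649, 122 and 57181 bp away in the same order.

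The ratio of shHMGA1 to control peaks was lowest in 2 bands beside the centromere, 19p12 and 19q12, which stain variably and were singled out after their values were seen. Together they held 124 shHMGA1 and 183 control peaks, a ratio of 0.678, against 0.886 for the whole lists. In the other 15 bands outside the centromere there were 1825 shHMGA1 and 1868 control peaks, a ratio of 0.977. In 19q12 alone there were 84 shHMGA1 and 123 control peaks (0.683), of which 9 and 46 were unshared. The shHMGA1-only share was 7.26% in the variable bands and 10.7% in the other bands, against 14.8% of the whole list. The control-only share in the variable bands was 36.1% (66 of 183), against 22.3% at the whole-list rate of each decile. It was 224 of 1868 in the other bands and 24.9% over the whole list. The variable bands made up 14.9% of the length outside the centromeric bands and held 8.85% of the control peaks of the chromosome. They held 66 of its 295 control-only peaks, centromeric bands included (22.4%, Wilson interval 18.0 to 27.5). The q arm outside the clusters, once 19q12 was left out, had 870 shHMGA1 and 897 control peaks, a ratio of 0.970. With lists made equally long by keeping the strongest peaks, the ratio was 0.844 in the variable bands (interval 0.623 to 1.14) and 0.998 in the others. The control-only share of the variable bands was then 20% (interval 13.0 to 29.4), against 7.79% in the others and 15.5% over the whole lists. Both intervals hold the whole-list value, which for the ratio is 1 by construction.

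**Figure D5:**
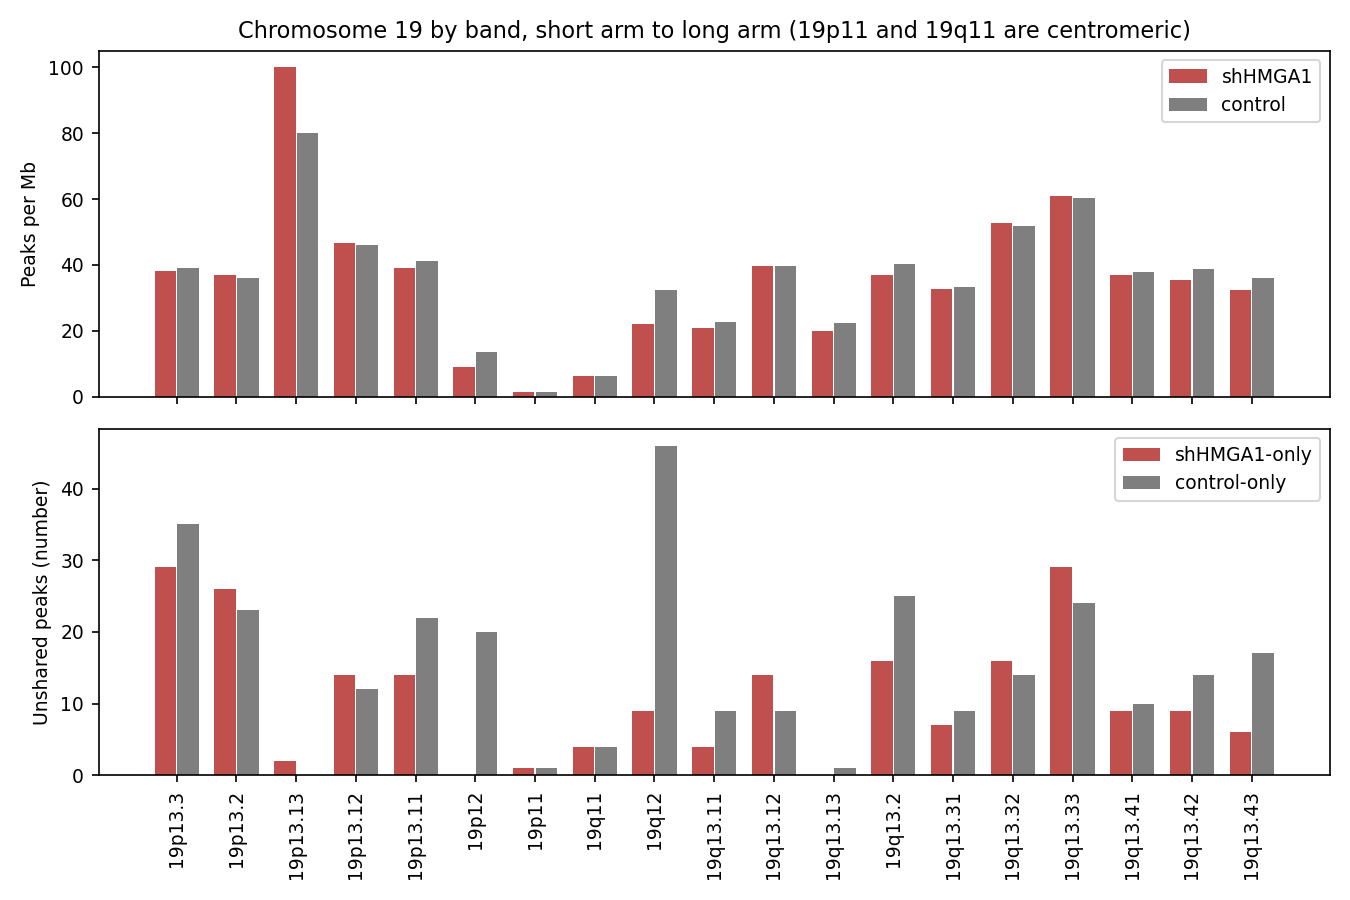
Peaks per Mb (top) and the number of unshared peaks (bottom) in each band of chromosome 19 from the end of the short arm to that of the long arm, shHMGA1 in red and control in grey. Control-only peaks were most numerous in 19q12, with 9 shHMGA1-only and 46 control-only peaks, and 19p12 had 0 shHMGA1-only and 20 control-only peaks; 19p13.13 is only 0.1 Mb long.

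Shared peaks of chromosome 19 were more often the wider in shHMGA1 than shared peaks at large. Among 1608 one-to-one pairs on the chromosome, 850 were wider in shHMGA1 (52.9%, Wilson interval 50.4 to 55.3), against 44.8% of all such pairs. Chromosome 22, at 56.0%, was the only one with a higher share. The excess lay outside the clusters, where 760 of 1404 pairs were wider in shHMGA1 (54.1%, interval 51.5 to 56.7), and the median log2 ratio of widths was 0.03. In the clusters 83 of 193 were (43.0%, interval 36.2 to 50.1), and that median was -0.01. Peaks that overlapped at least 2 peaks of the other list were few, as in the whole lists. In shHMGA1 they were 59 of 1965 peaks, against 4187 of 112610 in the whole list (3.72%). In control they were 51 of 2067, against 4554 of 127153 (3.58%).

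Among 971 pairs at least 500 bp wide in both lists, the largest gain in width lay in the second run of the 19q13.12 cluster. There the shHMGA1 peak ran from 37771600 to 37773844 (2245 bp) and the control peak from 37772012 to 37772855 (844 bp), a ratio of 2.66. The next gains were at 19q13.33 from 49377391 (1850 bp in shHMGA1 and 773 bp in control) and at 19p13.3 from 6772285 (1501 and 663 bp). The largest loss was in the 19p12 cluster, where the shHMGA1 peak ran from 21785475 to 21786026 (552 bp) and the control peak from 21785457 to 21786955 (1499 bp), a ratio of 0.368. The next losses were at 19q13.32 from 46282517 (538 bp in shHMGA1 and 1059 bp in control) and at 19p13.12 from 14491854 (717 and 1359 bp).

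The peak of largest area on the chromosome lay in the centromeric band 19q11, from 27731729 to 27740393 in shHMGA1 (area 112702, rank 9 of its list) and to 27740384 in control (area 105850, rank 8). The sequence under it was not examined, and whether repeats add to its area was not tested. The next in shHMGA1 were at 19p13.2 from 10526497 to 10533236 (area 27348), at 19q13.42 from 54691988 to 54695814 (25955) and at 19q13.32 from 47729083 to 47735060 (21224), each overlapping 2 control peaks, and then the 9865 bp peak of the 19q13.12 cluster. The next in control were at 19q13.42 from 54692953 to 54695801 (area 24684), at 19q13.2 from 39339851 to 39343080 (19209), at 19q13.33 from 50142615 to 50145920 (18617) and at 19p13.2 from 10528582 to 10532683 (18282). The 19q13.42 and 19p13.2 sites thus stood among the first 5 of both lists.

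Most unshared peaks of the chromosome were weak. In the weaker 5 deciles of their lists stood 200 of 209 shHMGA1-only and 261 of 295 control-only peaks. Over the whole lists 15815 of 16682 and 29149 of 31635 did. The unshared peaks of largest area outside the clusters are named here because of that area. In shHMGA1 they began at 3683471 in 19p13.3 (area 1270), and at 56244884 (966) and 54637136 (913) in 19q13.42. In control they began at 35657395 in 19q13.12 (area 1598), at 55954862 in 19q13.42 (929), and at 29205843 (797) and 28980087 (738) in 19q12. The first of these control-only peaks, 1219 bp wide and 11152 bp from the nearest shHMGA1 peak, ranked 29225 in its list by area.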

How the data were processed

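The labels give 6 samples, 3 shHMGA1 and 3 control, and the deposited data analysed here were 2 narrowPeak lists, 1 per group, assigned by the group in their own names. Per the submitters' processing notes, peaks were called with Genrich on hg19; how reads were aligned and filtered, the Genrich version and how the 3 samples of a group were combined is not given in the sources used here. The authors' signal value for a peak is the area beneath its significance curve, and the deposited score is 1000 times that area over the width, capped at 1000 (112608 of 112610 shHMGA1 and 127153 of 127153 control rows matched after rounding). Summit significance is the deposited unadjusted −log10 p. These values come from lists called separately, so areas and heights were used within a list, and medians were only set side by side.

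Peaks were placed by summit in hg19 bands from circlize 0.4.16, without the 4.2 Mb of centromeric bands. Overlap, pairing and spacing used pandas 2.3.3, numpy 2.4.6 and scipy 1.17.1 under Python 3.11.15 (figures: matplotlib 3.10.9) and were tested on simulated lists. Deciles are equal parts of a list by summit −log10 p. Runs are at least 8 peaks with neighbouring summits at most 5000 bp apart in either list. Intervals are 95%; a share of 0 carries the limit of 3 counts. Named sites followed rules by area (the first 5 overall and unshared, and the first per cluster), by width change (the first 3 each way among pairs of at least 500 bp) and by 1-Mb windows and peak-free intervals (3 each). The members, rules and lists were chosen with earlier results of these data known. No genes were placed, because the gene table is on another build. The sequence under the peaks, in the runs and elsewhere, was not examined, and no peaks were removed for lying in repeats.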

Additional observations from a re-analysis of the deposited data

How the results depend on the processing

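The alternatives gave 186 values, of which 125 stayed within the interval of the reported one. The share of chromosome 19 peaks without overlap, given for shHMGA1 and then for control, was 19.7% and 23.7% with a reciprocal overlap of 50%, 8.96% and 12.8% with a distance of 500 bp, 5.36% and 12.6% with both lists at the joined median significance (summit −log10 p of 5.24), 0.612% and 2.38% with only the counted list cut there, and 8.21% and 8.79% with the 56305 most significant peaks of each list. Over the whole lists the same settings gave 29.6% and 37.7%, 12.4% and 21.2%, 10.3% and 21.8%, 1.49% and 4.01%, and 15.0% and 15.5%, so chromosome 19 stood below them in each. In the clusters the shares that moved were 13.15% and 24.2% (reciprocal), 10.9% for control (joined median), 0.645% and 3.03% (counted list only), 6.49% for control (equal numbers), 2.80% for shHMGA1 without 19q13.12 and 10.4% for control without 19p12. At 19p12 the control share was 21.1% (joined median), 7.89% (counted list only) and 9.09% (equal numbers). Outside the clusters they were 20.4% and 23.5% (reciprocal), 9.39% for shHMGA1 (500 bp), 5.16% for shHMGA1 (joined median), 0.525% and 2.24% (counted list only), and 8.17% and 8.90% (equal numbers). The density of the clusters over that outside was 0.773 in shHMGA1 and 0.790 in control without 19p12, and 0.439 in shHMGA1 without 19q13.12. At the joined median the ratio of median widths was 0.959 in shHMGA1, below 1 where the reported 1.22 lay above it, and 1.04 in control, and the ratio of median areas was 1.15 in shHMGA1; without 19p12 the width ratio was 1.28 in control. The causes were not tested. The ratio of peak numbers ran from 0.813 to 1.01 in the clusters, from 0.913 to 0.985 outside and from 0.917 to 0.988 on the chromosome, the highest of each with equal numbers. Merging within 150 bp, shrinking the clusters by 200 kb and counting the centromeric bands moved none of the values for chromosome 19, its clusters or its outside beyond their intervals. The alternatives for the variable bands and whole lists were added after seeing the data. No paired analysis was possible because the deposited lists combine the 3 samples of a group, and no replicate could be left out for the same reason. Unknown depth limits every count of weak peaks.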

Other observations

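Peaks were unevenly packed along chromosome 19. Over 54 full 1-Mb windows outside the centromeric bands, the number of peaks ran from 0 to 74 in shHMGA1 (median 35.5) and from 2 to 76 in control (median 36.0). The fullest windows were 49000001 to 50000000 (74 shHMGA1 and 76 control peaks), 14000001 to 15000000 (71 and 69) and 1000001 to 2000000 (67 and 63). The emptiest was 20000001 to 21000000 in the 19p12 cluster, with 0 shHMGA1 and 2 control peaks, both unshared. The next were 32000001 to 33000000 (6 and 6) and 31000001 to 32000000 (7 and 8).

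Outside the centromeric bands, the longest interval with no peak in either list ran from 31705314 to 32715595 (1010 kb), across the border of 19q12 and 19q13.11. The next were 20070281 to 20794572 in the 19p12 cluster (724 kb) and 13278761 to 13842311 in 19p13.2 (564 kb). Of 9 such intervals of at least 300 kb, 4 lay in 19p12 and none in the other clusters. Of 76 intervals of at least 100 kb, 23 touched a cluster, and 13 of these were in 19p12. Band 19q13.33 had the highest density of the bands over 1 Mb long, 60.9 shHMGA1 and 60.3 control peaks per Mb.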
